A study of Mus musculus with 6 samples.

Results

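The genes described here are 10 nuclear genes that set how many mitochondria a cell makes and how those mitochondria fuse and divide: the biogenesis regulators Ppargc1b, Esrra and Nrf1, the fusion genes Mfn1, Mfn2 and Opa1, and the fission genes Dnm1l, Mff, Fis1 and Mtfr1. They were chosen by name for their roles and make up 10 of the 55291 gene symbols measured. RNA was sequenced from 6 libraries of RAW264.7, a murine line of macrophage character whose source is ascites. All cultures were given RANKL, the cytokine by which osteoclasts form, at 50 ng/mL over 4 days. In shCtrl (n = 3, genotype label WT) the hairpin was a control, and in shUSP8 (n = 3, genotype label USP8 Knock Down) it targeted Usp8, the gene of a deubiquitinase known from endosomes. How many hairpins were used, how they were delivered and whether the cells were clones are not given in the sources used here. No untreated culture was analysed here, so the values describe cells after 4 days of RANKL and not the course of osteoclast differentiation. The title of the study names mitochondria, USP8 and osteoclasts. The comparison asks whether regulators of mitochondrial number and shape differ when Usp8 is reduced.

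Mitochondrial biogenesis is driven by coactivators of the PGC-1 family, which bind no DNA themselves and act through nuclear receptors such as ERR alpha and through the factors NRF1 and GABP on genes of the respiratory chain. Mitochondria join when mitofusins tether outer membranes and OPA1 fuses inner membranes. They divide when the dynamin DRP1 is recruited from the cytosol by receptors of the outer membrane and constricts the organelle. Osteoclasts are rich in mitochondria, and PGC-1 beta is known for its induction in them by RANKL.

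Usp8 itself checks the labels: its normalised level was 129.4 to 141.0 CPM (TMM-scaled counts over library size) in shCtrl and 32.0 to 35.1 CPM in shUSP8, with no overlap (edgeR log2 fold change -2.00, SE 0.06, adjusted p = 1.47e-10). Total expected counts were 19973522 to 20213939 per library. The library shUSP8_2 stood apart in its mean fragment length, 367.2 nt against 290.8 to 308.2 nt in the other 5. Of 10 osteoclast markers, all detected, 5 fell and 0 rose (8 passed an unadjusted p under 0.05 in edgeR, 1 of them upward, and DESeq2 called 0 higher). On log2(TPM + 1), the level per transcript length described below, 2 fell and 1 rose. Over all 12440 genes tested on that scale, 499 fell and 2329 rose. The summed level of these markers was 13487 to 13912 CPM in shCtrl and 11208 to 11562 CPM in shUSP8. Of 10 markers of undifferentiated macrophages, all detected, 7 rose and 2 fell, and their summed level went from 4354 to 4538 CPM up to 6084 to 6636 CPM. Over all genes tested in edgeR, 17.8% rose and 14.9% fell. Of 8 stromal markers 4 passed the count filter and 0 were called in edgeR (1 was lower at an unadjusted p under 0.05, and DESeq2 called 1 lower). The summed level of all 8 was 6.63 to 17.1 CPM in shCtrl and 8.25 to 8.50 CPM in shUSP8. Runx2, which osteoblasts need, had 90.1 to 132.8 expected counts, Dcn had 5, 0 and 3 in shCtrl and 29, 15 and 9 in shUSP8, and Alpl and Bglap were at 0 in each library. Of the lymphocyte markers 0 passed the filter: Cd3e, Cd3g, Cd8a, Ms4a1 and Nkg7 were at 0 in each library, Cd4 had 0 to 5 counts and Cd79a 0 to 1. The part of these marker changes in the results below was not tested. In bulk RNA, fewer cells of a type and less RNA per cell cannot be told apart.

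Among the 10 regulators, 3 fell and 1 rose in shUSP8. Ppargc1b fell by 19.8%, Mff fell by 18.8% and Mfn2 fell by 14.4%, and Mtfr1 rose by 17.5%. The other 6, Esrra, Nrf1, Mfn1, Opa1, Dnm1l and Fis1, did not pass the test. All 10 passed the filter on low counts, with expected counts of 506 to 4625 per library, and a gene was called at a Benjamini-Hochberg adjusted p under 0.05 over the 12440 genes tested in edgeR. The 4 calls are 40% of the members, against 32.8% of all genes tested (17.8% higher and 14.9% lower), so the share called lay near the background. The groups did not overlap in 5 members, 3 lower and 2 higher, against 47.7% of all genes tested (24.6% higher, 23.1% lower). The median log2 fold change of the members was -0.13, and that of all genes tested was -0.0049. The largest change among the members was smaller than the median size of change among called genes, 0.32 against 0.37 on the log2 scale.

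**Figure D1:**
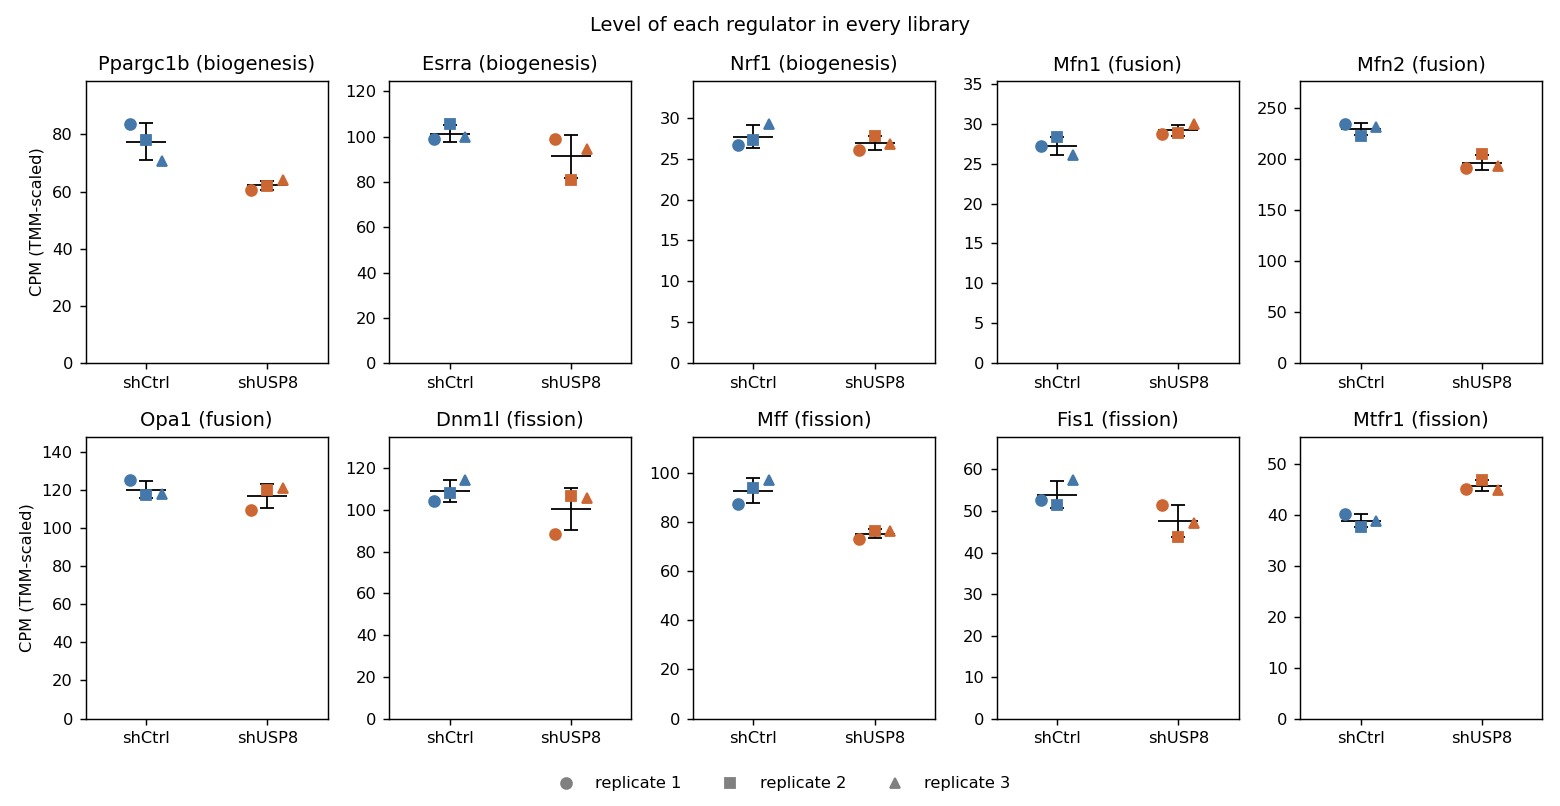
Level of each regulator in CPM (vertical axis, from 0) in the 3 shCtrl and 3 shUSP8 libraries; symbols are libraries by replicate number, and bars are the mean ± SD. The groups are apart in Ppargc1b, Mfn2, Mff, Mtfr1 and Mfn1, and overlap in the other 5.

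Ppargc1b, the gene of the coactivator PGC-1 beta, was at 83.6, 78.1 and 70.7 CPM in shCtrl_1 to shCtrl_3 and at 60.7, 61.8 and 64.0 CPM in shUSP8_1 to shUSP8_3. The highest shUSP8 library was below the lowest shCtrl library, and the shCtrl libraries were spread more widely than the shUSP8 libraries. The mean fell from 77.4 ± 6.47 to 62.1 ± 1.68 CPM (± SD of 3 libraries), or by a log2 fold change of -0.32 (SE 0.06, 95% interval -0.46 to -0.18, edgeR adjusted p = 0.00236). The call was lost when effective-length offsets were combined with a replicate block (adjusted p = 0.0571) and on log2(TPM + 1) (-0.19, adjusted p = 0.26), where TPM is the level per transcript length, set to 1 common total per library. The TPM values of the groups overlapped, at 22.7 to 30.1 in shCtrl and 21.7 to 24.8 in shUSP8.

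The PGC-1 family has 2 other members, and in these cells only one of them was at a level to compare. Ppargc1a, the gene of PGC-1 alpha, was seen with expected counts of 2, 1 and 0 (shCtrl) or 1, 0 and 0 (shUSP8), at or below the 3 counts that a count of 0 allows in a library of this depth. Pprc1, the gene of the PGC-1 related coactivator, had 1244, 1258 and 1022 expected counts in shCtrl and 1377, 1499 and 1540 in shUSP8. Pprc1 rose (log2 fold change 0.26, SE 0.07, edgeR adjusted p = 0.0197) and was named after its values were seen. It no longer passed with shCtrl_3 left out (adjusted p = 0.0733), with shUSP8_3 left out (0.0903) and with offsets and block together (0.056).

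The mix of coactivators was examined as a share. Ppargc1b made up 65.6%, 60.8% and 62.0% of the summed TPM of the family in shCtrl and 54.4%, 50.8% and 53.5% in shUSP8. The mean share was 62.8% ± 2.49 against 52.9% ± 1.87 (SD, n = 3 per group), and no shUSP8 library reached the lowest shCtrl library. The two-sided exact permutation test gave p = 0.1, the smallest that 3 against 3 can give, and an adjusted p of 0.15 over the 3 shares tested. Taken from expected counts instead of TPM, the difference was -9.96 percentage points, against -9.86 from TPM.

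**Figure D2:**
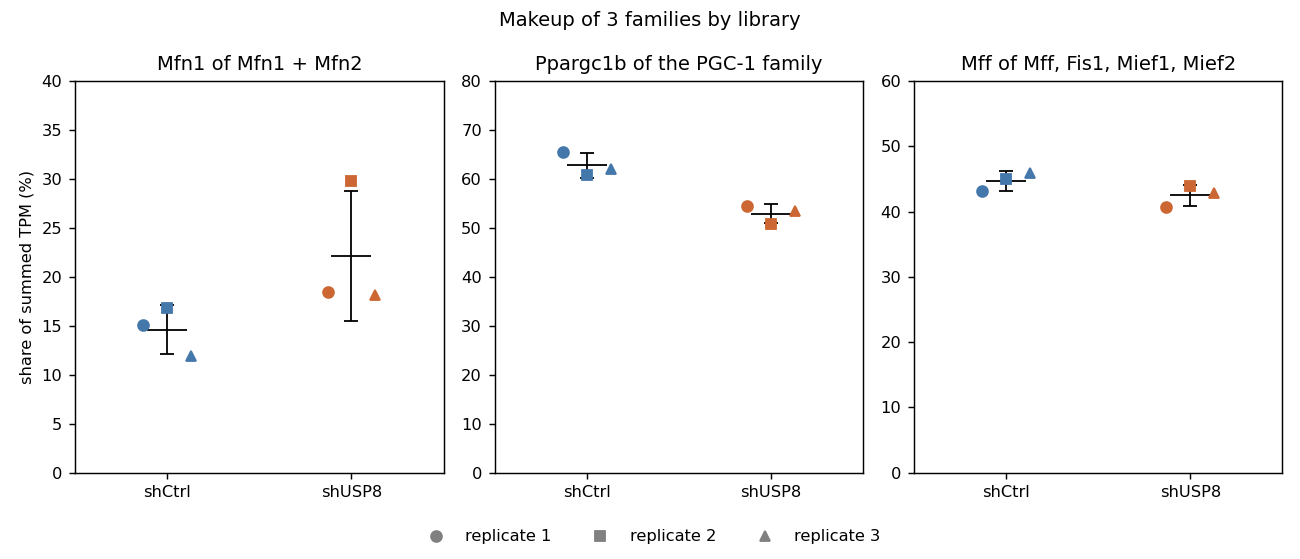
Share of summed TPM (percent, vertical axis from 0) taken by Mfn1 among the mitofusins, by Ppargc1b among the PGC-1 family and by Mff among the DRP1 receptors, by group; points are libraries and bars are the mean ± SD. The Ppargc1b and Mfn1 shares do not overlap between groups, and the Mfn1 share of shUSP8_2 (29.8%) lies far above those of the other 5 libraries.

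Esrra, the gene of the nuclear receptor ERR alpha, through which PGC-1 proteins act on respiratory genes, was at 98.8, 105.6 and 99.7 CPM in shCtrl and at 98.9, 80.8 and 94.6 CPM in shUSP8. The groups overlapped, and shUSP8_2 was the low library. The log2 fold change was -0.15 (SE 0.07, 95% interval -0.30 to 0.01, edgeR adjusted p = 0.131). It was -0.07 without shUSP8_2 and -0.21 without shUSP8_1 (adjusted p = 0.0198), so a single library decided on which side of the threshold it lay, and without the count filter the gene also passed (0.0422). On log2(TPM + 1) the value was 0.02, against a median of 0.11 over all genes tested. The other ERR genes, Esrrb and Esrrg, had 0 counts in each library, which allows up to 0.150 CPM. Exons of Esrra share 73 bases with Trmt112 on the opposite strand, which had 1061 to 1221 expected counts. Whether the counting used strand is not given in the sources used here, so reads from that stretch cannot be told apart.

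Nrf1, the gene of a transcription factor for respiratory and import genes, was at 26.6, 27.3 and 29.2 CPM in shCtrl and at 26.1, 27.8 and 26.8 CPM in shUSP8. The groups overlapped, and the log2 fold change was -0.04 (SE 0.07, 95% interval -0.19 to 0.10, adjusted p = 0.645), so on the count scale a change beyond 0.19 in size lay outside the interval. Its direction turned with library totals alone (0.03), with effective-length offsets (0.11) and on log2(TPM + 1) (0.22), with no call on any of these scales. Relative to the median of all genes, Nrf1 was at -0.04 with library totals alone and at 0.11 on log2(TPM + 1).

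Since ERR alpha and NRF1 are members and bind short DNA motifs, the promoters of the members were searched for those letters. RefSeq promoter windows (GRCm38.p6, 300 bases from 250 before to 50 after a start site) matched 8 of the 10 members. Windows for Ppargc1b and Mtfr1 were not used here. The full NRF1 motif, the letters GCATGCGC with GC directly before them, reads the same on both strands. It was present in 1 member, Opa1, and in 0.971% of all 32851 windows. The part GCATGCGC, searched on both strands and contained in the full motif, was present in Opa1 and Esrra and in 2.71% of windows. The ERR motif TCAAGGTCA and its inner part AAGGTCA, also searched on both strands, were present in none of the 8 members, against 0.423% and 4.72% of windows. Counted over 27025 genes instead of windows, these shares were 1.07%, 3.05%, 0.466% and 5.38%, in the order given. The motifs were chosen after the members' levels were known. Both stretches with a match are shown here because they hold letters of a motif described for another member. They lie before the start site and are written along the gene, with the matching letters in capitals.

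Opa1, chr16:29579215-29579304, plus strand, the motif 59 to 50 bases before the start site: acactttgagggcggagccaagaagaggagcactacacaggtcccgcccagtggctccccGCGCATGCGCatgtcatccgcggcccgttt

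Esrra, chr19:6921815-6921902, minus strand, the motif 34 to 27 bases before the start site: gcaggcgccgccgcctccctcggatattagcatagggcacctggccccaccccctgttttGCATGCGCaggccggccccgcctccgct

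A match is a description of the letters and not a measured binding site. Opa1, Esrra and Nrf1 itself did not pass the test.

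Mfn2, which encodes the mitofusin that also tethers mitochondria to the endoplasmic reticulum, lies on chromosome 4 at 147873599 to 147904704 on the minus strand of GRCm38. It was the member with the most counts, at 234.2, 222.9 and 231.0 CPM in shCtrl and at 190.9, 204.8 and 193.1 CPM in shUSP8. All shUSP8 libraries lay below all shCtrl libraries. The mean fell from 229.4 ± 5.79 to 196.3 ± 7.44 CPM (± SD of 3 libraries), or by a log2 fold change of -0.22 (SE 0.05, 95% interval -0.33 to -0.12, edgeR adjusted p = 0.00452). The call held with each library left out in turn and with effective-length offsets (-0.25, adjusted p = 0.00568), and was lost on log2(TPM + 1) (-0.12, adjusted p = 0.159).

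Mfn1, the other mitofusin, was at 27.2, 28.4 and 26.1 CPM in shCtrl and at 28.7, 28.9 and 30.0 CPM in shUSP8. The groups did not overlap, by a narrow gap, and the log2 fold change of 0.10 did not pass the test (SE 0.06, 95% interval -0.04 to 0.24, adjusted p = 0.263). The TPM values gave a different size: 12.7, 13.6 and 9.10 in shCtrl and 13.7, 27.0 and 14.5 in shUSP8. On log2(TPM + 1) the value for Mfn1 was 0.55 (SE 0.26, adjusted p = 0.169), carried mainly by shUSP8_2. Count and TPM differ by the effective length, the number of positions at which a fragment can start, averaged over a gene's transcripts by their estimated abundance. For Mfn1 it was 2455, 2339 and 3091 nt in shCtrl and 2527, 1246 and 2620 nt in shUSP8, so shUSP8_2 stood at 0.493 of the median of the other 5 libraries. Only 0.713% of 10655 genes had a ratio as low or lower, and the median ratio over genes was 0.959. The table lists 10 Mfn1 transcripts of 246 to 4562 nt, and which of them the reads of shUSP8_2 were assigned to was not tested, since the files give sums per gene.

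**Figure D3:**
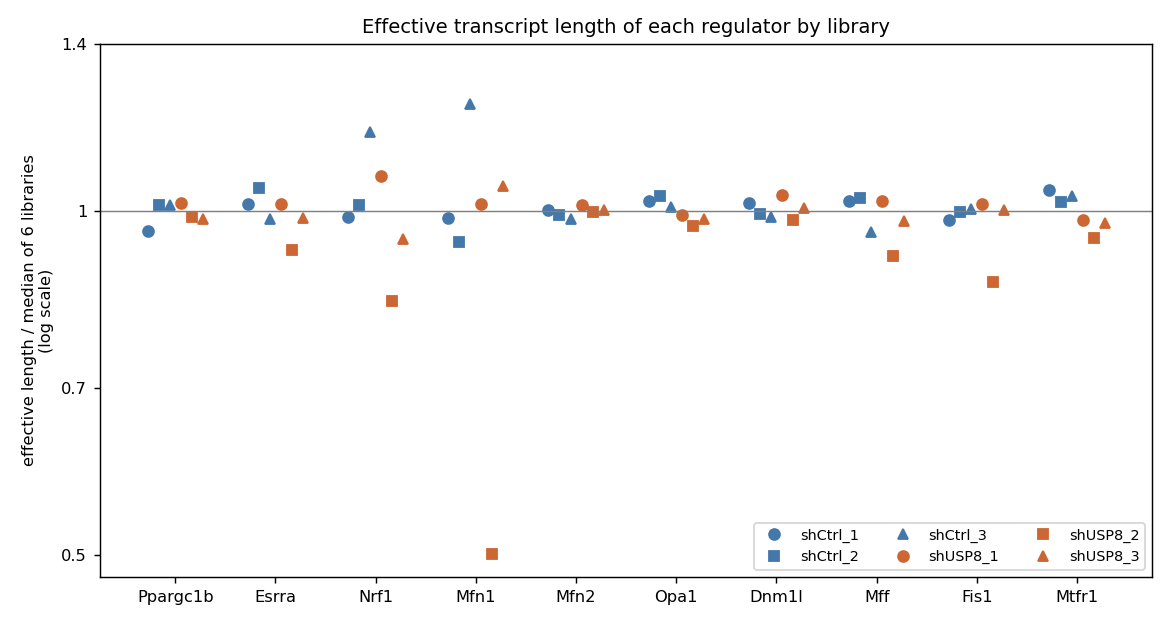
Effective transcript length of each regulator in every library, divided by the median of the 6 libraries (log axis); blue symbols are shCtrl and orange symbols shUSP8. Mfn1 in shUSP8_2 lies near 0.5, shUSP8_2 is the lowest library for each gene but Ppargc1b and Mfn2, by a small margin for Opa1 and Dnm1l.

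With Mfn2 lower and Mfn1 not, the mitofusin mix was examined as a share. Mfn1 made up 15.1%, 16.9% and 11.9% of the summed mitofusin TPM in shCtrl and 18.4%, 29.8% and 18.2% in shUSP8. All shUSP8 libraries lay above all shCtrl libraries, and the mean share was 14.6% ± 2.52 against 22.1% ± 6.60 (SD, n = 3 per group). The two-sided exact permutation test again gave its minimum, p = 0.1 (adjusted p = 0.15 over 3 shares). The difference of 7.51 percentage points was 3.70 without shUSP8_2, and 2.33 when expected counts replaced TPM, again with no overlap (10.6% ± 0.594 against 12.96% ± 0.554). The direction was shared by these measures, and its size rested largely on shUSP8_2.

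Opa1, the dynamin that fuses inner membranes and keeps cristae closed, was at 125.4, 117.2 and 117.9 CPM in shCtrl and at 109.7, 120.1 and 120.7 CPM in shUSP8. The groups overlapped, with shUSP8_1 the lowest library. The log2 fold change was -0.04 (SE 0.05, 95% interval -0.16 to 0.08, adjusted p = 0.616), and it turned to 0.13 on log2(TPM + 1). The other genes of fusion and OPA1 processing moved little. Of 15 tested that are not members, 1 rose and 1 fell, with a median of -0.02. Over all genes tested 17.8% rose and 14.9% fell. Afg3l2, a protease subunit of the inner membrane on which normal OPA1 processing depends, rose from 196.3 ± 2.23 to 222.3 ± 8.48 CPM (0.18, SE 0.05, adjusted p = 0.0143). The Afg3l2 call was lost without shCtrl_2 (0.0774) and with offsets and block together (0.0705). Chchd3, a subunit of the MICOS complex at cristae junctions, went from 134.9 ± 1.69 to 120.7 ± 3.49 CPM (-0.16, SE 0.05, adjusted p = 0.0209). The Chchd3 call was lost under 9 of 20 alternatives, among them each shCtrl library left out (0.0514, 0.0849 and 0.0595), shUSP8_3 left out (0.0967) and effective-length offsets (0.0811). The proteases that cut OPA1, Oma1 at -0.02 (adjusted p = 0.877) and Yme1l1 at -0.02 (0.853), did not pass the test.

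Among the fission genes, Dnm1l encodes DRP1, the dynamin that constricts mitochondria. It was at 104.2, 108.3 and 114.6 CPM in shCtrl and at 88.6, 106.6 and 105.7 CPM in shUSP8. The low library was shUSP8_1, and the groups overlapped. The log2 fold change was -0.12 (SE 0.07, 95% interval -0.28 to 0.04, adjusted p = 0.228), and -0.04 without shUSP8_1.

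Mff, the gene of the mitochondrial fission factor, a receptor of DRP1, lies on chromosome 1 at 82724890 to 82752394 on the plus strand of GRCm38. It was at 87.2, 93.8 and 97.1 CPM in shCtrl and at 73.0, 76.4 and 76.3 CPM in shUSP8, with a clear gap between the groups. The mean fell from 92.7 ± 5.06 to 75.2 ± 1.93 CPM (± SD of 3 libraries), or by a log2 fold change of -0.30 (SE 0.05, 95% interval -0.42 to -0.18, edgeR adjusted p = 0.0012), the smallest adjusted p of the members. The call held with each library left out in turn and with effective-length offsets (-0.27, adjusted p = 0.0399). It was lost on log2(TPM + 1) (-0.13, adjusted p = 0.21), where shCtrl was at 130.5 to 145.2 TPM and shUSP8 at 114.8 to 131.1 TPM. Its expected counts were not whole in any library, as were those of Dnm1l. Each of these 2 genes shares exon bases with a transcript on the opposite strand: C430014B12Rik for Mff, at 3.03 to 8.21 expected counts, and Gm49521 for Dnm1l, at 2.02 to 7.29.

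Fis1, a small protein of the outer membrane that recruits fission and mitophagy factors, was at 52.7, 51.5 and 57.6 CPM in shCtrl and at 51.5, 43.8 and 47.2 CPM in shUSP8. The groups met at 51.5 CPM, and shUSP8_2 was the lowest library. The log2 fold change was -0.18 (SE 0.07, 95% interval -0.33 to -0.03) and its adjusted p was 0.0663. Fis1 passed without shUSP8_1 (-0.24, adjusted p = 0.00936) and without the count filter (0.0232), and was at -0.01 on log2(TPM + 1). The effective length of Fis1, 480.2 to 496 nt in 5 libraries, was 424 nt in shUSP8_2, the library with the longest fragments.

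The other receptors of DRP1, Mief1 (-0.07, adjusted p = 0.339) and Mief2 (-0.02, adjusted p = 0.898), did not pass. Among the 4 receptor genes, Mff made up 43.1%, 45.0% and 46.0% of the summed TPM in shCtrl and 40.7%, 44.0% and 42.8% in shUSP8. The shares overlapped (44.7% ± 1.47 against 42.5% ± 1.67, SD, n = 3 per group; exact permutation test, two-sided, p = 0.2, adjusted p = 0.2 over 3 shares). As shares of expected counts they did not overlap, at 35.7% ± 0.791 against 32.6% ± 0.624 (exact permutation p = 0.1, the smallest possible).

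Mtfr1, the gene of mitochondrial fission regulator 1, whose product promotes fragmentation of mitochondria, was the member that rose. It lies on chromosome 3 at 19187327 to 19220817 on the plus strand of GRCm38. Its level was 40.2, 37.5 and 38.8 CPM in shCtrl and 45.1, 46.9 and 44.9 CPM in shUSP8. Every shUSP8 library lay above every shCtrl library, and both groups were tight. The mean rose from 38.8 ± 1.33 to 45.6 ± 1.08 CPM (± SD of 3 libraries), or by a log2 fold change of 0.23 (SE 0.06, 95% interval 0.11 to 0.36, edgeR adjusted p = 0.00877). With shCtrl_2 left out it missed the threshold (0.21, adjusted p = 0.0568). Mtfr1 was the only member called on log2(TPM + 1) (0.43, SE 0.06, adjusted p = 0.00369), with 25.7 to 28.1 TPM in shCtrl and 35.1 to 37.1 TPM in shUSP8. Its effective length was 1599 to 1639 nt in shCtrl and 1489 to 1544 nt in shUSP8, without overlap (exact permutation p = 0.1, the smallest possible). Opa1 was likewise apart, at 3329 to 3407 nt in shCtrl and 3205 to 3282 nt in shUSP8 (exact permutation p = 0.1). How often this held over all genes was not counted.

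Of 11 further fission genes tested, 1 rose and 0 fell, against 17.8% and 14.9% of all genes tested. Unadjusted p-values under 0.05 in edgeR, counted over all 15 genes of the list with the 4 members, were 2 higher and 5 lower, and DESeq2 called 2 higher and 1 lower, as edgeR did. The gene that rose was Inf2, a formin that builds actin at sites of contact between mitochondria and the endoplasmic reticulum before fission, from 170.5 ± 20.3 to 221.8 ± 5.90 CPM (0.38, SE 0.08, adjusted p = 0.00403). The Inf2 call held in each of the 20 alternatives, log2(TPM + 1) included (0.52, adjusted p = 0.0182). Its lowest library was shCtrl_3, at 147.2 CPM, and its groups did not overlap. Of 7 genes tested that move mitochondria along the cytoskeleton, 0 passed in either direction in edgeR or DESeq2, and 0 had an unadjusted p under 0.05 in these fits. With effective-length offsets in edgeR, 2 of the 7 were lower at an unadjusted p under 0.05 and 0 were called.

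**Figure D4:**
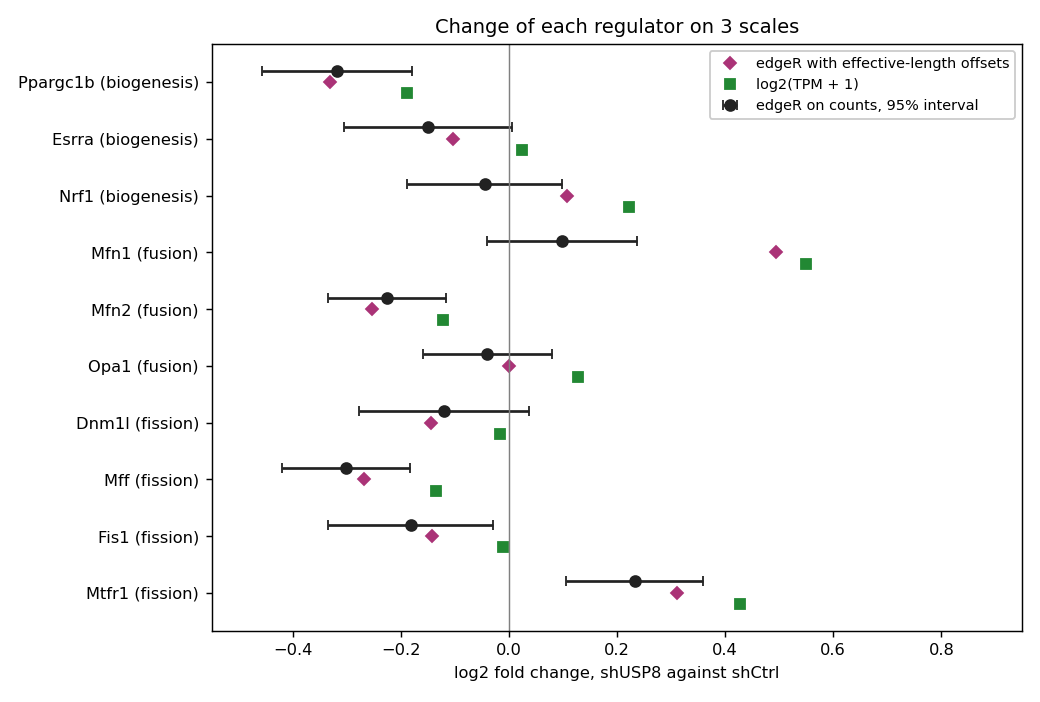
Log2 fold change of shUSP8 against shCtrl (horizontal axis) for each regulator in edgeR on counts with its 95% interval (black), in edgeR with effective-length offsets (purple) and on log2(TPM + 1) (green). The TPM values lie to the right of the count values in all 10 genes, by 0.10 to 0.45, and the offsets move Mfn1 and Nrf1 the most.

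The scale affected the members together. The log2(TPM + 1) values of all genes had a median difference of 0.11, shUSP8 being higher, and relative to it Ppargc1b was at -0.30, Mff at -0.24, Mfn2 at -0.23, Mtfr1 at 0.32 and Mfn1 at 0.44. On that scale 1 member rose and 0 fell. Of all 12440 genes tested 22.7% were called there, 2329 higher and 499 lower, so few genes of any kind fell. None of the members fell even at an unadjusted p under 0.05, whereas edgeR, DESeq2 and limma-voom each called 3 lower and 1 higher on the counts. With effective-length offsets 3 members fell and 1 rose, against 22.1% of all 12379 genes called, 1226 lower and 1510 higher.

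Compared per length, the members kept nearly the same order of levels in both groups. Mff was the highest, at 137.4 ± 7.38 TPM in shCtrl and 125.2 ± 9.07 TPM in shUSP8 (SD, n = 3 per group), followed by Fis1 at 123.4 ± 4.47 and 122.4 ± 2.32 TPM. Esrra (69.0 ± 1.31 and 70.4 ± 6.39 TPM) and Mfn2 (68.7 ± 2.44 and 63.1 ± 2.30 TPM) came next and overlapped in both groups, as did Opa1 and Dnm1l at 37.7 to 43.6 TPM on average. Mfn1 was the lowest, at 11.8 ± 2.39 and 18.4 ± 7.45 TPM. Mtfr1 overlapped with Ppargc1b in shCtrl (26.7 ± 1.25 and 26.3 ± 3.73 TPM) and with Dnm1l in shUSP8 (36.3 ± 1.01 and 37.7 ± 4.83 TPM). In shUSP8 the ranges of Mff and Fis1, of Nrf1 and Ppargc1b, and of Ppargc1b and Mfn1 also overlapped.

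Around the members, the other biogenesis factors tested moved in both directions. Among 14 such genes 4 rose and 2 fell, against 17.8% and 14.9% of all genes tested, and their median was 0.03. The largest rise with ample counts was that of Rxra, the retinoid X receptor alpha, a partner of many nuclear receptors, from 11.3 ± 1.12 to 38.6 ± 3.22 CPM (1.78, SE 0.09, adjusted p = 1.87e-08). Ppard, a fatty acid sensor of the PPAR family, rose from 30.7 ± 3.01 to 50.1 ± 1.93 CPM (0.71, SE 0.07, adjusted p = 1.81e-05). Its relative Pparg had only 2, 6 and 1 expected counts in shCtrl and 11, 17 and 16 in shUSP8 (adjusted p = 0.00565, lost with effective-length offsets at 0.0529). Perm1, a regulator of mitochondrial genes that PGC-1 and ERR induce in muscle, fell from 36.6 ± 2.37 to 30.1 ± 1.25 CPM (-0.28, SE 0.07, adjusted p = 0.0075), a call lost on log2(TPM + 1) (-0.14, 0.306) and with offsets and block together (0.0623). Gabpb2, a subunit of GABP, was at 161.4 ± 3.80 and 139.6 ± 11.6 CPM (-0.21, SE 0.06, adjusted p = 0.0212). The Gabpb2 call was lost with library totals alone (0.126), with effective-length offsets (0.0869), on log2(TPM + 1) (0.618) and without shCtrl_1 (0.051), shCtrl_2 (0.0631) or shCtrl_3 (0.0831).

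Of 14 tested genes listed as upstream of PGC-1 proteins, among them kinases, deacetylases, an acetyltransferase and regulatory subunits, 6 rose and 1 fell (median 0.05). Over all genes tested 17.8% rose and 14.9% fell. Kat2a, the acetyltransferase GCN5, which represses PGC-1 proteins by acetylation, rose from 42.7 ± 2.71 to 56.1 ± 0.948 CPM (0.39, SE 0.06, adjusted p = 3.53e-04). Mapk14, the kinase p38 alpha, rose by 0.27 (SE 0.06, adjusted p = 0.0063), and Rptor, the subunit raptor of mTORC1, by 0.24 (SE 0.05, adjusted p = 0.00447). Prkag2, a regulatory subunit of the energy sensor AMPK, fell from 76.6 ± 3.06 to 60.6 ± 2.90 CPM (-0.34, SE 0.06, adjusted p = 6.18e-04). Of the other AMPK genes, Prkaa1, a catalytic subunit, rose (0.23, SE 0.06, edgeR adjusted p = 0.0126). Prkab1, Prkab2 and Prkag1, other subunits, did not pass the test. With effective-length offsets, alone or with the replicate block, or without shCtrl_2 or shUSP8_3, 3 members of the list rose: Kat2a, Mapk14 and Rptor. The Prkaa1 call was thus lost in each of these settings. The calls of Kat2a, Mapk14, Rptor and Prkag2 held in each of the 20 alternatives.

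A list of genes described as targets of ERR alpha, the partner of PGC-1 beta, was counted in the same way. Leaving out the members, 7 of 13 tested fell and 0 rose, against 14.9% and 17.8% of all genes tested. The median of these 13 was -0.22 against -0.0049 over all genes tested. Over the whole list of 15, Esrra and Mfn2 included, edgeR called 8 lower and DESeq2 9, and 11 fell and 0 rose at an unadjusted p under 0.05. Ckb, the brain-type creatine kinase, fell from 3427 ± 176 to 1919 ± 115 CPM (-0.84, SE 0.06, adjusted p = 9.61e-07). Slc25a4, the ADP/ATP carrier of the inner membrane, fell from 350.0 ± 7.18 to 260.5 ± 15.1 CPM (-0.43, SE 0.05, adjusted p = 8.4e-05), and Cycs, cytochrome c, fell from 131.5 ± 4.74 to 100.8 ± 3.73 CPM (-0.38, SE 0.05). On log2(TPM + 1), 4 of the 15 fell and 1 rose, against 499 and 2329 of all 12440 genes tested. Not every target was lower: Idh3a, a subunit of isocitrate dehydrogenase, was at 0.11 (adjusted p = 0.157) and Acadm, an acyl-CoA dehydrogenase, at 0.02 (adjusted p = 0.802).

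The genes whose profile over the 6 libraries was most like that of Ppargc1b were sought among 8926 genes whose log2 CPM averaged 3 or more, by the root mean square distance between profiles centred on their means. The nearest were Pgghg, a glucosidase that acts on collagen sugars (distance 0.035 on the log2 scale, log2 fold change -0.34), Mdm4, a regulator of p53 (0.036, -0.31), and Ghr, the growth hormone receptor (0.039, -0.29). Pgghg missed the threshold on log2(TPM + 1) (adjusted p = 0.21) and with offsets and block together (0.0693). Mdm4 missed it with effective-length offsets (adjusted p = 0.248) and on log2(TPM + 1) (0.614), and the Ghr call (adjusted p = 0.0274) under 11 of 20 alternatives. None of the other 9 regulators was among these 3.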

How the data were processed

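The authors deposited RSEM-type expected counts (estimated fragments per gene, not normalized) and TPM (expected count over effective length, scaled to 1 sum per library) for 55291 symbols in 6 libraries. RSEM, DESeq2 1.28.1 and mm10 are listed, without roles, per the submitters' processing notes. Columns named WT and KO were read as shCtrl and shUSP8: WT is the controls' genotype label, KO was assigned to the only other genotype, and replicate numbers were matched to the titles. Whether each library had its own culture is not in the labels, and p-values reflect only library-to-library spread, which may be technical. The closest pair, shCtrl_1 and shCtrl_2, had a chi-square per gene of 2.25, above sampling noise.

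Rounded expected counts of all genes were tested in edgeR 4.0.16 (R 4.3.3; TMM factors, filterByExpr with minimum count 10 and total 15, robust quasi-likelihood F test, Benjamini-Hochberg adjustment). SE is the absolute log2 fold change over the square root of F. CPM uses TMM factors. Shares were compared with two-sided exact permutation tests. Effective length is expected count over TPM, scaled by a straight-line fit on single-transcript genes, which also gave the fragment length. Gene positions came from GENCODE M21 (99.1% of transcript identifiers matched). Alternatives used limma 3.58.1, DESeq2 1.42.0, other factors and filters, TPM with pseudocounts 1 and 0.1, offsets, a block by replicate number and fits with 1 library omitted. Only the edgeR step was tested on simulated counts with known fold changes. Tables were handled with pandas 2.3.3 and numpy 2.4.6 in Python 3.11.15, permutation tests with scipy 1.17.1, and plots with matplotlib 3.10.9.

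The members, lists and tests were chosen with earlier results of these data known. Named are the members, up to 3 called genes per list and direction by smallest p, and the 3 genes most like Ppargc1b. Transport, osteoclast and macrophage lists are given as counts of genes, and stromal and lymphocyte lists with the levels of named markers. A marker of the lymphocyte list is not reported here. Mief1, Mief2, Oma1, Yme1l1, Idh3a, Acadm, Pprc1, Prkaa1, Prkab1, Prkab2 and Prkag1 were named after their values were seen.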

Additional observations from a re-analysis of the deposited data

How the results depend on the processing

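Of 200 values (10 members under 20 alternatives), 175 kept their direction and their side of the threshold. Over all genes, edgeR called 2218 higher and 1859 lower; these were 3111 and 1172 with library totals alone (72.6% of calls higher, against 54.4%), 1510 and 1226 with effective-length offsets, and 1206 and 935 with offsets and the replicate block. On log2(TPM + 1) 2329 rose and 499 fell (82.4% higher), and on log2(TPM + 0.1) 2351 and 493. With 1 library left out, 1675 to 2349 rose and 1239 (without shCtrl_2) to 2077 fell. Members called lower numbered 3, against 5 without the count filter, 0 on both TPM scales and 3 to 5 with 1 library left out (5 without shUSP8_1); 1 rose, and 0 without shCtrl_2 (range 0 to 1). Pathway genes that are no members rose in 12 cases and fell in 11, against 6 and 6 with offsets and block, 5 lower on both TPM scales, and 8 to 13 and 9 to 15 with 1 library left out. The number called higher and lower over all settings was 0 to 2 and 0 to 2 in the fusion list (1 and 2 as reported, members included), 1 to 4 and 0 to 4 in the fission list (2 and 1), 2 to 5 and 0 to 5 among biogenesis factors (4 and 3), 3 to 6 and 1 to 2 among regulators of PGC-1 (6 and 1), 0 to 1 and 4 to 10 among ERR alpha targets (0 and 8) and 0 to 1 and 0 in transport. Directions turned, with no call, for Esrra on log2(TPM + 1) (0.024) and log2(TPM + 0.1) (0.024); for Nrf1 with library totals (0.030), on both TPM scales (0.22 and 0.23), with offsets (0.11) and with offsets and block (0.10); and for Opa1 with library totals (0.034), on both TPM scales (0.13 and 0.13), with offsets (0.00096), with offsets and block (0.00062) and without shUSP8_1 (0.0038, in a range from -0.061 with 1 library left out). With library totals alone, Nrf1 was at -0.039 and Opa1 at -0.035 relative to the median of all genes (0.069). These were -0.040 and -0.035 in the edgeR fit as reported, so relative to the median neither turned. On log2(TPM + 1), relative to its median of 0.11, Esrra was at -0.086, Nrf1 at 0.11 and Opa1 at 0.018. The cause of the turns was not tested. Whether equal replicate numbers mark pairs is not in the labels. Same-number deviations correlated across genes at -0.0073, 0.078 and -0.054, and not every library correlated best with its own number. With 3 libraries per group these values cannot exclude pairs. The replicate block called 2021 higher and 1690 lower and changed the call of no member by itself.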
